A study of Mus musculus with 7 samples.

Results

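The cadherin superfamily in mouse cortical progenitors was described from open chromatin at its genes. The members were all protein-coding genes of the RefSeq GRCm38 table with the symbols Cdh followed by digits, Pcdh, Fat1 to Fat4, Dchs1, Dchs2 and Celsr1 to Celsr3. This rule gave 101 of 21883 protein-coding genes. The 57 genes of the Pcdha, Pcdhb and Pcdhg clusters, which share long stretches of sequence, were treated as 3 loci of 14, 22 and 21 genes, which left 47 member loci among 21829. The rule used symbols alone and no measured value, although members were chosen with earlier results of these data known.

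Open chromatin was profiled by ATAC-seq, in which a transposase cuts accessible DNA and tags it for sequencing, in CD15-positive neural progenitors sorted by flow cytometry from the embryonic dorsal telencephalon of mice of the CD-1 strain. CD15 is a surface carbohydrate used to enrich neural stem and progenitor cells. The titles give E14.5 and the sample labels give embryonic day 14. There were 3 wild-type libraries and 4 libraries of genotype L3mbtl3 -/-, and L3mbtl3 encodes a chromatin reader with MBT repeats that the series' title describes as an interactor of Polycomb repressive complex 1. The labels say the same strain, age and sort for both groups, and name no Cre driver. No library is labelled heterozygous, although the growth protocol mentions such cells. Nothing in the labels says whether libraries came from separate embryos, so p-values measure the spread between these libraries, which may be technical. In a bulk library, fewer cells with an open site and less opening per cell cannot be told apart.

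The authors deposited 1 list of peaks per library, and the lists differ in length. There were 7448, 11394 and 6458 peaks in wild-type libraries 1 to 3, and 9827, 7111, 3366 and 17362 in knockout libraries 1 to 4. The longest and the shortest list are therefore both from knockouts, replicates 4 and 3. The lists hold no read counts, so depth is unknown, and a missing peak says that none was called and not that the site is closed. At L3mbtl3 itself (chr10:26274461-26376036) no library had a peak within 1 kb of a gene end, and wild-type 1 and knockout 4 had 1 peak each in the gene and 50 kb around it, so these lists do not check the genotype labels.

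Cadherins are calcium-dependent adhesion proteins of the cell surface. Classical cadherins bind like to like between neighbouring cells and hold actin through catenins, and N-cadherin, the product of Cdh2, keeps the adherens junctions by which radial glia hold together at the ventricular surface. Protocadherins adhere more weakly and sort neurites and neurons, the clustered ones by giving each neuron its own combination of isoforms. Fat and Dachsous proteins are giant cadherins that bind each other across cells and carry planar polarity and growth signals, and the Celsr proteins are the vertebrate Flamingo cadherins of planar polarity.

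The promoters where peaks lay are shown first, and most of them hold a common promoter element, the CCAAT box. The RefSeq GRCm38.p6 promoter table, which spans 250 bases before to 50 bases after a start site, held 32 promoters of 29 of the 101 genes. A peak of at least 1 library overlapped 10 of these 32 promoters (31.2%), against 19.7% of all 21262 promoters, and the 10 promoters belong to 9 genes. The 250 bases upstream of the start are printed for 7 of the 9, 4 delta-2 protocadherins and 3 type II cadherins, 5′ to 3′ on the strand of the gene, with each CCAAT box (CCAAT, or ATTGG where it lies on the other strand) in capitals. Cdh6 is shown as the gene of this set that lacks the box.
Pcdh17 (chr14:84443313-84443562, plus strand): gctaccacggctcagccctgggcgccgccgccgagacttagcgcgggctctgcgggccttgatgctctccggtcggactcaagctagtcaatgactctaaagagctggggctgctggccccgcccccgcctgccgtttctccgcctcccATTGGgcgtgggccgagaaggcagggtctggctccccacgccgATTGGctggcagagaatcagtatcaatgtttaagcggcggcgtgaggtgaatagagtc
Pcdh10 (chr3:45378148-45378397, plus strand): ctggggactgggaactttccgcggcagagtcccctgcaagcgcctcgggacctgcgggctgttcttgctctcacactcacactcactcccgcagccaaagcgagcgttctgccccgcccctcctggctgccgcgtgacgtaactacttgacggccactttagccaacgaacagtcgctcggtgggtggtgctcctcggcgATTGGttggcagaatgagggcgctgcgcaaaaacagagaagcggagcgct
Pcdh18 (chr3:49757317-49757566, minus strand): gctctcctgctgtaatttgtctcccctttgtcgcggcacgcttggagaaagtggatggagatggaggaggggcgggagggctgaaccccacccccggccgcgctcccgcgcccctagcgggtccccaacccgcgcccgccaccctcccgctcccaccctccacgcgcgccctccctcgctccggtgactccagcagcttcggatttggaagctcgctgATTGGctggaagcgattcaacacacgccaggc
Pcdh8 (chr14:79771313-79771562, minus strand): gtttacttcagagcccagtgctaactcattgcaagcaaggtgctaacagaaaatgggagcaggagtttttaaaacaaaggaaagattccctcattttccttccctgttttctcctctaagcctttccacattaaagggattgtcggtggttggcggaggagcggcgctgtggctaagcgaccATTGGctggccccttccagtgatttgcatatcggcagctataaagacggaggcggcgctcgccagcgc
Cdh18 (chr15:23036213-23036462, plus strand): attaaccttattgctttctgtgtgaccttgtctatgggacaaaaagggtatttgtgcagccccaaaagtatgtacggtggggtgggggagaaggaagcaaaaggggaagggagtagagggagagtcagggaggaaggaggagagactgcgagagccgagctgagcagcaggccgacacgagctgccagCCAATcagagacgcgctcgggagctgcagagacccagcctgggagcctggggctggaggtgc
Cdh20 (chr1:104768270-104768519, plus strand): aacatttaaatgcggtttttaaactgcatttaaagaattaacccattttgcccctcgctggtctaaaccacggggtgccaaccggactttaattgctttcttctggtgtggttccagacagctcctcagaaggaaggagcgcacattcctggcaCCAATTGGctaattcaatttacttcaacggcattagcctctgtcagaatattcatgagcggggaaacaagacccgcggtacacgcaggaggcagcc
Cdh6 (chr15:13173676-13173925, minus strand): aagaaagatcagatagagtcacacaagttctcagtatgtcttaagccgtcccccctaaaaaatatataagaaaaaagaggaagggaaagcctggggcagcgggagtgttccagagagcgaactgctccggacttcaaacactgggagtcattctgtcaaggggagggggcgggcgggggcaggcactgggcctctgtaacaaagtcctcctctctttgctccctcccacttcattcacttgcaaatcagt

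The CCAAT box is a common promoter element bound by the trimeric factor NF-Y. It was searched on both strands of the 300 bases, with 4 other motifs. CCAAT was in 17 of the 32 member promoters and in 38.2% of all promoters. Among the 10 member promoters under a peak, 9 held it (8 of the 9 genes), against 8 of the 22 without a peak. The same order was seen over all promoters, where 54.7% of the 4191 under a peak and 34.1% of the others held the box, so the pattern is not particular to the members. The promoters under a peak in at least 4 libraries held it in 68.0% of 1186 cases. In the members under a peak there were 12 matches, with the box of the overlapping Pcdh9 promoters counted in each, and 11 of them lay under a called peak.

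These boxes lay close to the start site. Of the 12, 10 were between 100 and 30 bases upstream. In Pcdh17 the boxes began 101 and 58 bases upstream, in Cdh18 62, in Pcdh8 68, in Pcdh15 90 and in Pcdh18 32. Cdh20 has CCAATTGG, a palindrome of the box and its complement that was read once on each strand and begins 96 bases upstream. Pcdh10 has 1 box 50 bases upstream and another 34 bases into the transcript, which is the box that no peak covered. GGGCGG, the GC box bound by Sp1-type factors, was in 11 of the 32 member promoters and 46.2% of all promoters, and in 4 of the 10 under a peak, against 66.4% of all promoters under a peak. The E-boxes CAGCTG and CAGATG, which proneural bHLH factors can bind, were in 3 member promoters each, against 15.6% and 14.6% of all promoters. A simplified core of the CTCF motif was in 2, against 9.88% of all promoters. A match is a stretch of letters, not a bound site.

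The promoters of Cdh18, Cdh6 and Pcdh15 were under a peak in all 3 wild-type libraries and in 3 of the 4 knockouts. The knockout library without a peak was replicate 3, the shortest list, at all of them. Cdh18 and Cdh6 are type II cadherins with patterned expression in the developing brain, and Pcdh15 is best known as a part of the hair-cell tip link. Pcdh17, a delta-2 protocadherin of axons and synapses, was called at its promoter in all wild-type libraries and in knockouts 1 and 4. Cdh20 was called in all wild-type libraries and in knockout 1 alone. Pcdh18 went the other way, with wild-type 1 and knockouts 1, 2 and 4. The promoters of Pcdh9 were called in 2 libraries of each genotype, Pcdh10 in wild-type 2 and knockouts 1 and 2, and Pcdh8 in wild-type 3 and knockouts 3 and 4. None of these promoters was called throughout 1 genotype while absent from the other. Of the 32 member promoters, 8, 8 and 6 were called in the wild-type libraries and 7, 5, 3 and 8 in the knockouts. That is 22.9% ± 3.61 (SD, n = 3) against 17.97% ± 6.93 (SD, n = 4), a difference of -4.95 percentage points (two-sided exact permutation test, p = 0.371). Of all promoters, 6.41%, 9.57% and 5.41% were called in the wild-type libraries and 7.47%, 5.13%, 3.07% and 15.0% in the knockouts.

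**Figure D1:**
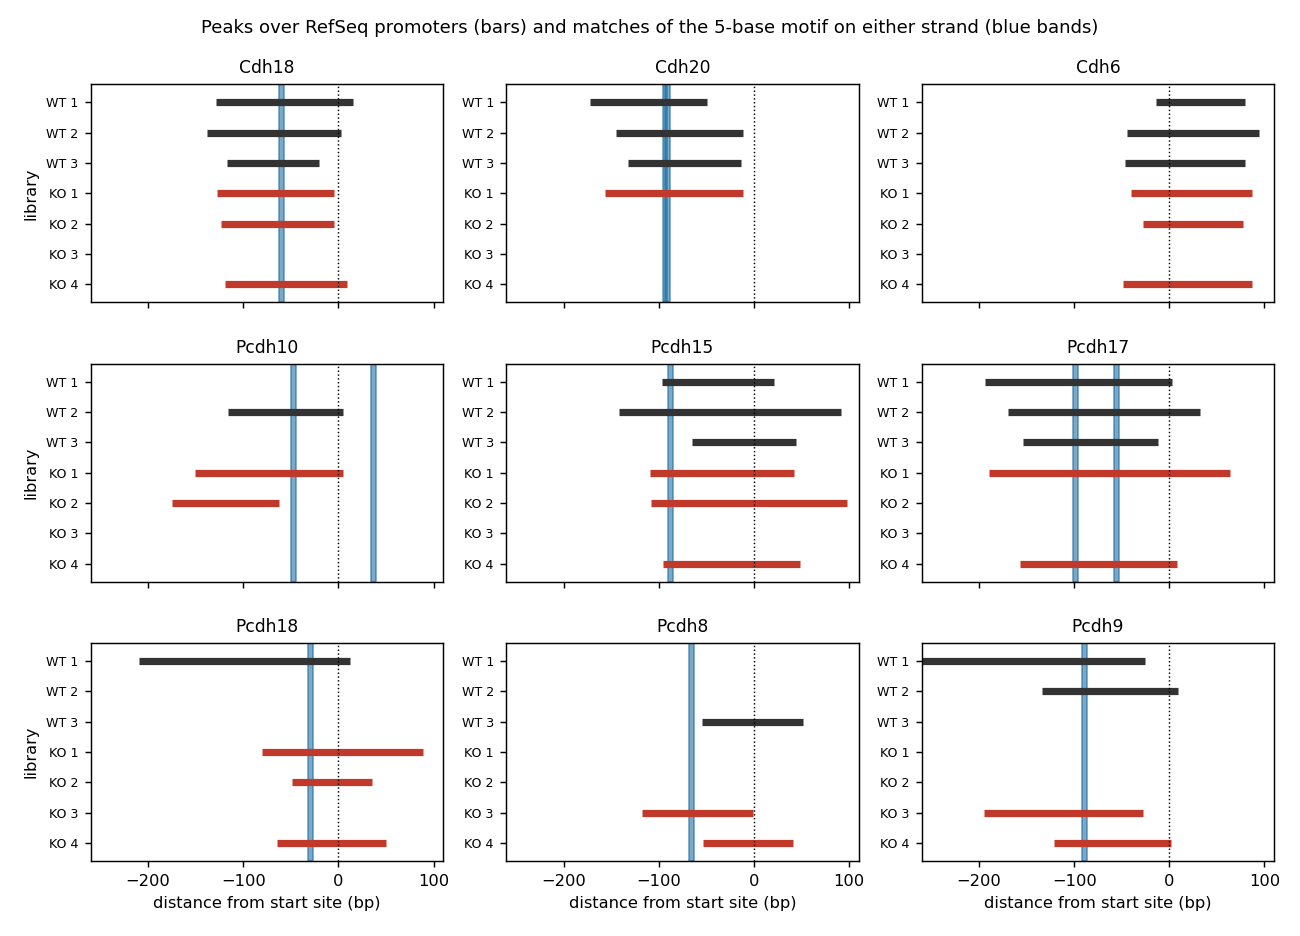
Peaks over the promoters of the 9 member genes with a called promoter. Each row is a library (wild-type black, knockout red), bars are the called peaks, the x axis is the distance from the RefSeq start site in bp, and blue bands are CCAAT boxes on either strand. Peaks cover the boxes of Cdh18, Cdh20 and Pcdh17 in each library that has a peak there, and Cdh6 has no box. The bar of wild-type 1 at Pcdh9 runs past the left edge.

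Gene ends were then called for all loci. A locus counted as called at an end if any peak was 1 kb or less from the lower or upper limit of its span, since the gene table gives no strand. Of the 47 member loci, 10 (21.3%) were called in at least 1 library, against 23.7% of all 21829 loci. At least 4 libraries called 7 member loci (14.9%), against 6.53% of all loci. In all 7 libraries 1 member locus (2.13%) was called, against 1.14%. No classical type I cadherin, no Fat or Dachsous gene, no Celsr gene and no cluster taken as 1 locus had a peak at an end in these lists, whereas 4 of the 5 delta-2 protocadherins did.

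Pcdh20, a short protocadherin gene (chr14:88464743-88471396), was the locus called at an end in all 7 libraries. Its region (chr14:88464436-88464658) ends 85 bp below the span. The gene is on the minus strand, so the region lies at the end away from the start, 6849 bp downstream of the start site. The authors' fold enrichment there was 6.46, 9.36 and 5.87 in the wild-type lists and 8.34, 8.27, 4.36 and 7.77 in the knockout lists. The ranges of the genotypes overlap. The RefSeq promoter of Pcdh20 was under no peak.

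The other called ends were shared by the genotypes in most cases. Pcdh17 was called in 3 wild-type and 2 knockout libraries, Cdh10 and Cdh16 in 2 and 3 each, and Cdh20 in 3 and 1. Cdh10 is a type II cadherin of neurons and Cdh16 is known as the cadherin of kidney tubules. Pcdh18 and Pcdh8 were called in 1 wild-type and 3 knockout libraries each. For Pcdh8, the peak of knockout 1 (chr14:79771947-79772063) lay outside the promoter that the other 3 libraries called. Pcdh10 was called in 1 and 2 libraries. Cdh12 was called in wild-type 2 alone and Pcdh7 in knockout 2 alone. Because the gene span of Cdh18, Cdh6, Pcdh15 and Pcdh9 extends beyond the start site in the promoter table, their called promoters do not count as ends here. Peaks at member ends had a median fold of 4.31 to 6.26 by library, and all peaks of the same lists 4.35 to 4.81.

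Within the clusters, single genes were also looked up. Of the 14 alpha genes, Pcdhac1 was called, by wild-type 2 and knockout 1, with a peak 111 bp below its lower end. None of the 22 beta genes was called. Of the 21 gamma genes, Pcdhgc3 was called, by knockout 4, with a peak 3 bp below its lower end. Both belong to the C-type isoforms, which are made in most neurons, while the other cluster genes are chosen at random in each neuron. Thus 2 of the 57 cluster genes were called in at least 1 library, where 23.7% of all loci were. Genes of a cluster share sequence and may share an end, so the 57 are not separate loci and these shares are not like for like.

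The gene body and its surroundings held far more. With the span and 50 kb on either side as the window, 44 of 47 loci (93.6%) had a peak in at least 1 library, against 69.2% of all loci. Cdh1, Cdh9 and Cdh19 had none in any library. Cdh1 encodes E-cadherin of epithelia. In all 7 libraries 14 member loci (29.8%) had a peak, against 6.9% of all loci. The windows held 67, 111 and 52 peaks in the wild-type lists and 94, 70, 28 and 137 in the knockout lists, which largely follow the lengths of the lists. Between 67.9% and 75.0% of these lay in the gene spans. The spans also make up most of the length of the windows, so these shares by themselves show no preference for gene bodies.

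**Figure D2:**
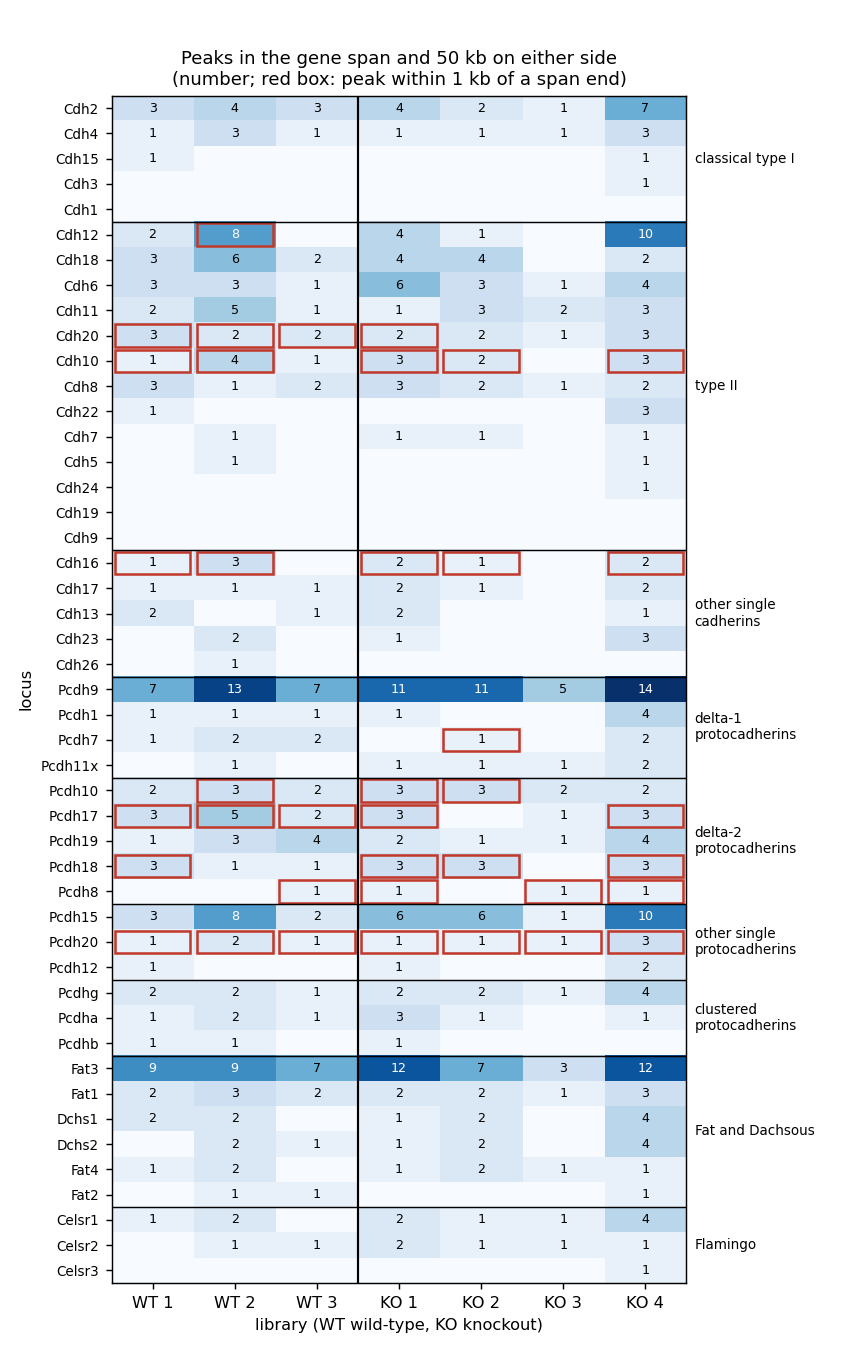
Number of peaks in the span and 50 kb on either side for the 47 member loci (rows, grouped by family) in the 7 libraries (columns). Darker cells hold more peaks and red boxes mark a peak within 1 kb of a span end. Pcdh9 and Fat3 hold the most peaks summed over the columns, knockout 3 is the palest column and knockout 4 the darkest.

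Pcdh9, a delta-1 protocadherin of developing cortex, had the most peaks. Its window held 7, 13 and 7 peaks in the wild-type libraries and 11, 11, 5 and 14 in the knockouts. The groups overlap (9 ± 3.46, SD, n = 3, against 10.2 ± 3.77, SD, n = 4, exact permutation p = 0.686). The 68 peaks summed over the libraries put it at rank 14 of 21829 loci. Fat3, a Fat cadherin that shapes neuronal dendrites, came next among members at rank 24, with 9, 9 and 7 wild-type and 12, 7, 3 and 12 knockout peaks. Its groups had nearly the same mean (8.33 ± 1.15, n = 3, against 8.5 ± 4.36, n = 4, exact permutation p = 1), and the knockouts spread more widely. Pcdh15 had 3, 8 and 2 wild-type peaks and 6, 6, 1 and 10 in the knockouts, at rank 89. These are among the longest member genes, with spans of 879, 592 and 1554 kb.

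Among the classical type I cadherins, Cdh2 had a peak in every library, with 3, 4 and 3 in wild-type and 4, 2, 1 and 7 in knockouts. Its groups overlap, and knockout 4 had the most. The family's 5 loci had 1.07 ± 0.306 peaks per locus in wild-type (SD, n = 3) and 1.1 ± 0.902 in knockouts (SD, n = 4). Most of these were at Cdh2 and Cdh4. Cdh3 and Cdh15 had peaks in 1 and 2 libraries.

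The 13 type II cadherins, which give neuronal groups different adhesive identities, were uneven. Cdh12 had 2, 8 and 0 wild-type and 4, 1, 0 and 10 knockout peaks, so that its 2 highest values came from the longest list of each genotype. Cdh18 had 3, 6 and 2 against 4, 4, 0 and 2, and Cdh6 had 3, 3 and 1 against 6, 3, 1 and 4. Cdh11 had 2, 5 and 1 against 1, 3, 2 and 3, and Cdh20 had 3, 2 and 2 against 2, 2, 1 and 3. The groups overlap at each of these. Cdh5, the cadherin of endothelium, had 1 peak in wild-type 2 and 1 in knockout 4. Cdh7 was called in 1 wild-type and 3 knockout libraries, all at 1 region (chr1:109972181-109972835) below its span. The family had 1.49 ± 0.851 peaks per locus in wild-type and 1.54 ± 0.904 in knockouts (exact permutation p = 0.886, n = 3 and 4).

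The delta-1 protocadherins Pcdh1, Pcdh7, Pcdh9 and Pcdh11x had 3.0 ± 1.09 peaks per locus in wild-type (n = 3) and 3.38 ± 1.64 in knockouts (n = 4, exact permutation p = 0.743), most of them at Pcdh9. Pcdh11x, on the X chromosome, had 0, 1 and 0 wild-type and 1, 1, 1 and 2 knockout peaks. A peak was thus present in 1 wild-type library and in all 4 knockouts, and the numbers overlap at wild-type 2 (exact permutation p = 0.114). Its 5 regions included 4 called in a single library, and the other was called by wild-type 2 and knockout 2. No region was called by more than 1 knockout. Pcdh7 had 1, 2 and 2 wild-type and 0, 1, 0 and 2 knockout peaks (exact permutation p = 0.257), and Pcdh1 had 1, 1 and 1 against 1, 0, 0 and 4.

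The delta-2 protocadherins had 2.07 ± 0.306 peaks per locus in wild-type (n = 3) and 1.85 ± 0.772 in knockouts (n = 4, exact permutation p = 0.714). Pcdh10, which binds like to like and bears on axon growth, had 2, 3 and 2 peaks in wild-type and 3, 3, 2 and 2 in knockouts, so that no library lacked one. Pcdh17 had 3, 5 and 2 wild-type and 3, 0, 1 and 3 knockout peaks. Its difference of -1.58 peaks did not pass the test (3.33 ± 1.53, n = 3, against 1.75 ± 1.5, n = 4, exact permutation p = 0.286). Pcdh19, an X-linked gene whose human counterpart is mutated in a form of epilepsy, had 1, 3 and 4 against 2, 1, 1 and 4. Pcdh8 had 0, 0 and 1 against 1, 0, 1 and 1.

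The clustered protocadherins had 1.22 ± 0.509 peaks per locus in wild-type (SD, n = 3) and 1.25 ± 0.739 in knockouts (SD, n = 4). Summed over the libraries, 7 peaks lay inside the span of Pcdha, 0 inside that of Pcdhb and 1 inside that of Pcdhg. Pcdhb had 1, 1 and 0 wild-type and 1, 0, 0 and 0 knockout peaks in its window. Pcdha had 1, 2 and 1 against 3, 1, 0 and 1, and 1 region in its span (chr18:37149352-37149559) was called in 2 wild-type and 3 knockout libraries. Pcdhg had 2, 2 and 1 against 2, 2, 1 and 4. The region called most often near it (chr18:37644138-37644364, 6 libraries, not knockout 2) is 17411 bp below the gamma span and within 1 kb of an end of Taf7, a general transcription factor gene. Its fold was 7.39, 8.51 and 6.33 in wild-type and 5.71, 3.88 and 5.79 in knockouts 1, 3 and 4. Each wild-type value lies above each of these knockout values, although fold is set within each list and knockout 2 has no value. The difference was not tested. How many other regions separate in this way was not counted, so this region cannot be called unusual. At −log10 q of at least 5 the region was called in all wild-type libraries and in no knockout. At this cutoff the lists held only 140 to 1771 peaks, so a missing call says little.

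Among the Fat and Dachsous genes, Fat1 had 2, 3 and 2 wild-type and 2, 2, 1 and 3 knockout peaks, and Fat4 had 1, 2 and 0 against 1, 2, 1 and 1. The ligand genes Dchs1 and Dchs2 had 2, 2 and 0 against 1, 2, 0 and 4, and 0, 2 and 1 against 1, 2, 0 and 4. Fat2 was called in 2 wild-type libraries and 1 knockout. The 6 loci had 2.44 ± 0.674 peaks per locus in wild-type and 2.58 ± 1.37 in knockouts (n = 3 and 4, exact permutation p = 0.914). Celsr1 had 1, 2 and 0 against 2, 1, 1 and 4, Celsr2 had 0, 1 and 1 against 2, 1, 1 and 1, and Celsr3 had a single peak, in knockout 4. The 3 Celsr loci had 0.556 ± 0.385 peaks per locus in wild-type and 1.17 ± 0.638 in knockouts (n = 3 and 4, exact permutation p = 0.229), and these ranges overlap.

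Across libraries the peaks at the members merged into 215 distinct regions, of which 150 lay in a span, and spans are most of the window length. In the lists, 96 of the 215 (44.7%) were called in 1 library, 60 (27.9%) in at least 4 and 12 (5.58%) in all 7. For all 25623 regions these shares were 48.4%, 25.0% and 5.06%. Both genotypes called 110 of the member regions (51.2%, against 44.2% of all regions). Wild-type libraries alone called 38 (17.7%, against 16.2% of all regions). Knockouts alone called 67 (31.2%, against 39.6%). Of these 67, 40 were from knockout 4 by itself, as were 6474 of the 10145 over all regions.

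The 12 regions called in all 7 libraries lay at 7 loci, and 10 of the 12 were inside a gene span, where most of the window length lies. Of these 12, 8 were over 10 kb from either end of the span and 1, at Pcdh20, was within 1 kb. Pcdh9 had 4 of them (chr14:93009090-93009521, chr14:93067013-93068167, chr14:93416874-93417053 and chr14:93585474-93585939). The last had a fold of 6.37, 7.37 and 5.45 in wild-type and 7.51, 8.68, 4.95 and 6.65 in knockouts, with overlapping groups. Fat3 had regions at chr9:16014138-16014538 and chr9:16484948-16485505, and Pcdh10 had regions at chr3:45385108-45386087 and chr3:45431750-45432274. Cdh20 (chr1:104838195-104838664), Cdh8 (chr8:99234466-99234816) and Fat1 (chr8:44998701-44999224) had 1 each. Fold enrichment over these regions and libraries ran from 3.76 to 9.36. In Cdh2, 1 region inside the span (chr18:16713456-16713794) was called in 6 libraries, with a fold of 4.50 and 5.07 in wild-type 1 and 2 and 5.75, 5.09, 5.01 and 5.75 in the knockouts.

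**Figure D3:**
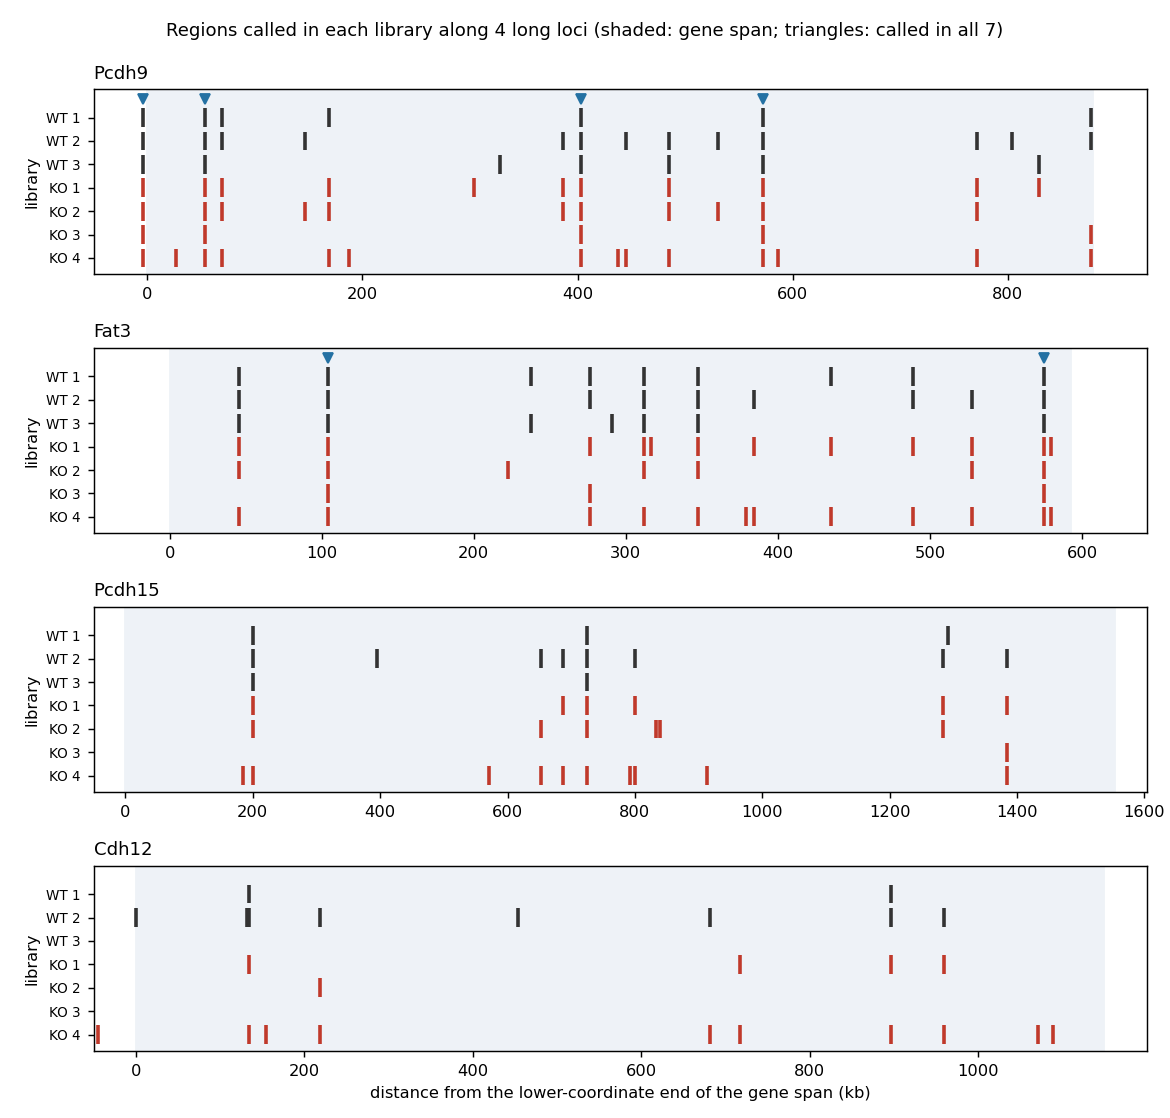
Positions of peaks along 4 long member loci, Pcdh9, Fat3, Pcdh15 and Cdh12, by library, with the x axis in kb from the lower-coordinate end of the span. Each tick is a region with a peak in that library, shading is the gene span, and triangles mark regions called in all 7 libraries. Pcdh9 has 4 triangles and Fat3 has 2, while Pcdh15 and Cdh12 have none.

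Calling by genotype was compared with library values. Member loci with a peak at an end made up 12.8%, 14.9% and 8.51% of the 47 in wild-type and 17.0%, 12.8%, 4.26% and 12.8% in knockouts. Loci with a peak in the wider window made up 68.1%, 76.6% and 57.4% against 74.5%, 61.7%, 42.6% and 89.4%. Both ranges of the knockouts contain those of the wild-type libraries. Peaks per locus were 1.47, 2.36 and 1.11 against 2.04, 1.49, 0.596 and 2.96. Set against the length of its own list, each library had a like share of its peaks in member windows, 0.900%, 0.974% and 0.805% against 0.957%, 0.984%, 0.832% and 0.789%.

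None of the 4 values differed beyond the spread between libraries by a two-sided exact permutation test over the 35 splits, whose smallest p is 0.0286. For called ends the means were 12.1% ± 3.25 (SD, n = 3) and 11.7% ± 5.35 (SD, n = 4), with exact p = 1. For the wider window they were 67.4% ± 9.59 (n = 3) and 67.0% ± 19.8 (n = 4), with exact p = 1. Peaks per locus were 1.65 ± 0.646 (n = 3) and 1.77 ± 0.990 (n = 4), with exact p = 0.829. The share of the list was 0.893% ± 0.0847 (n = 3) and 0.890% ± 0.0947 (n = 4), with exact p = 0.971. Benjamini-Hochberg adjustment over the 4 values gives 1 for each. A p of this size does not show that the genotypes are alike.

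**Figure D4:**
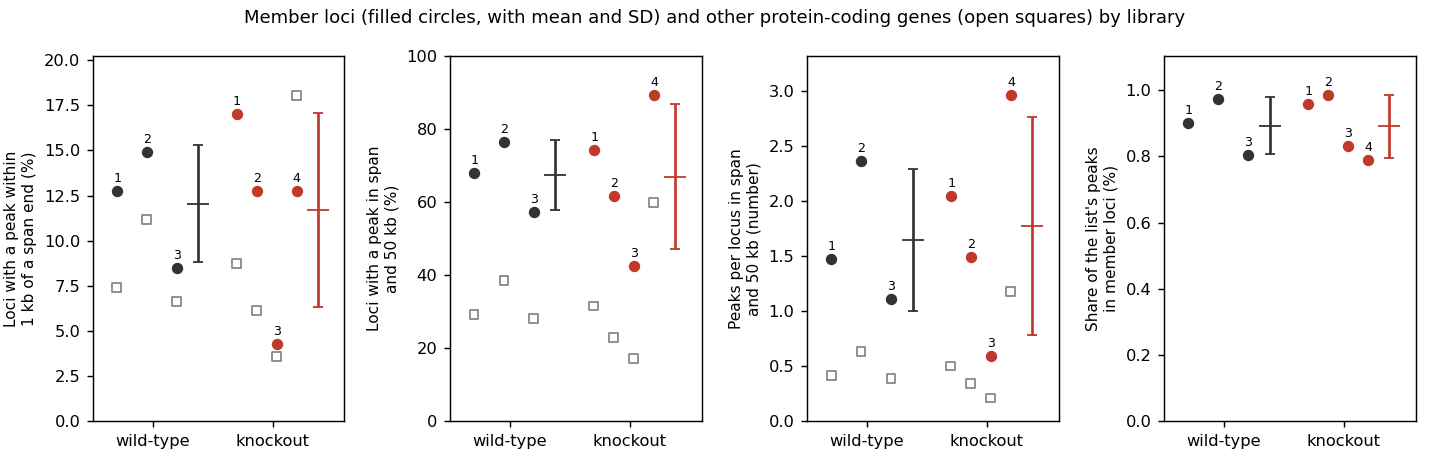
Library values for member loci (filled circles, numbered by replicate, with mean and SD beside them) and for other protein-coding genes (open squares, first 3 panels). The y axes are percent of loci, percent of loci, peaks per locus and percent of the list's peaks. Wild-type and knockout libraries overlap in every panel, and member loci lie above other genes except for called ends in knockout 4.

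No single member set the genotypes apart. Of the 10 loci with a called end, 0 were called throughout 1 genotype and nowhere in the other, against 0.0774% (wild-type) and 0.116% (knockout) of 5165 loci. For peak numbers in the wider window, 0 of 44 member loci had groups that did not overlap, against 0.212% (wild-type higher) and 0.132% (knockout higher) of all loci with a peak. By the exact permutation test per locus, 0 of 44 members had an unadjusted p below 0.05, against 0.331% of all loci. No locus passed the Benjamini-Hochberg adjustment, but the smallest p, 0.0286, is too large for a single locus to pass it. The adjusted result therefore says nothing about the members. Of the 215 regions, 0 were called throughout 1 genotype and nowhere in the other, against 0.133% (wild-type) and 0.109% (knockout) of all regions. Fisher's exact test per region or end gave no adjusted call, and the same limit holds for it. Among the 10 loci with a called end, the share of libraries was higher in knockouts at 6 and in wild-type at 3, against 52.6% and 42.6% of all such loci, and 0 of the 10 had an unadjusted permutation p below 0.05, against 0.194%. For the wider window, the mean was higher in knockouts at 26 of 44 loci (59.1%) and in wild-type at 16 (36.4%), and over all loci these shares were 58.6% and 37.8%. The median difference was 0.208 peaks per locus for the 44 members and 0.167 for the 15115 loci with a peak.

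The loci with the largest gap in the share of libraries with a peak were Pcdh11x, Cdh7, Pcdh8, Celsr1, Fat4 and Celsr2 on the knockout side, the last 3 tied. On the wild-type side they were Pcdh1, Pcdh7, Fat2, Pcdhb and Cdh26. Cdh26, a cadherin of epithelia, had a single peak, in wild-type 2. The adjusted permutation p was 1 for all of them, but this design lets no single locus pass the adjustment.

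Member loci are long, with a median span of 127 kb against 17.1 kb for other genes, so the peak numbers were also set against length. Per Mb of span, the members had 4.28 peaks in the median library and other genes 3.45, and members were higher in 6 of 7 libraries. Between 20 and 100 kb the 14 members had 6.80 peaks per Mb against 2.83, and between 100 and 300 kb the 16 members had 5.39 against 3.25. Members were higher in all 7 libraries in both classes. The class from 20 to 100 kb rests on few loci. Summed over the libraries, Pcdh10 had 16 peaks in its span, Cdh17 and Pcdh17 6 each, Cdh16 5 and Celsr2 2. The rest of that class had none, and its values were not recounted without Pcdh10. Over 300 kb, the class that holds Pcdh9, Fat3 and Pcdh15, the 11 members had 3.73 against 3.87 and were higher in 1 library. The share with a peak in all 7 libraries was 43.8% for members of 100 to 300 kb against 17.3% of other genes, and 45.5% against 45.0% over 300 kb. The 11 were uneven. As a mean over the 7 libraries, Fat3 had 14.2 and Pcdh9 9.91 peaks per Mb of span. The other genes of this class, pooled, had 8.12 in their highest library. This is a value of the class as a whole, and single genes of it were not compared. Pcdh15 had 3.31, Pcdh7 1.71, Pcdh11x 1.15 and Cdh13 0.603.

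By library, members held 3.52, 3.75 and 2.87 times as many peaks per locus as other genes in wild-type, and 4.08, 4.40, 2.83 and 2.51 times as many in knockouts. These values are not set against length. Per Mb of span, members held 0.908 to 1.38 times as many by library. For called ends the ratios were 1.72, 1.34 and 1.28 against 1.95, 2.09, 1.19 and 0.707. The ratios for peaks per locus and for called ends were lowest in knockout 4, the longest list.

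Genes that work with cadherins were read the same way. Of 12 catenin and adherens junction genes, 4 had a called end and 8 a peak in the wider window in at least 1 library. Over all loci these shares were 23.7% and 69.2%, which hold for the lists that follow as well. Ctnna2, which encodes the neuronal alpha-catenin, had 10, 9 and 4 wild-type and 9, 5, 5 and 14 knockout peaks. The catenin gene Ctnna3 had 7, 7 and 7 against 8, 5, 2 and 18, and a called end in 1 knockout. Ctnnd2, delta-catenin, had 3, 8 and 5 against 8, 5, 2 and 13, and no called end. Pkp4 was called at an end in 2 wild-type libraries and 1 knockout. Of 11 planar polarity and Fat pathway genes, 1 had a called end, Vangl2, in 1 library of each genotype, and 10 had a peak in the window. Of 8 regulators of the protocadherin clusters, which include CTCF and cohesin genes, 2 had a called end. Smc3, a cohesin subunit gene, was called in 0 wild-type and 3 knockout libraries and Smc1a in 1 knockout. No gene of the 3 lists had peak numbers that did not overlap between genotypes.

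Cell type markers were checked with the same calls, to be read against the same 23.7% of loci with a called end and 69.2% with a peak in the window. Of 11 dorsal progenitor genes, 6 had a called end and 10 a peak in the window in at least 1 library, and of 5 cortical neuron genes 2 and 5. For 6 ventral telencephalon genes the numbers were 1 and 4, for 5 endothelial genes, Cdh5 among them, 0 and 5, for 4 microglia and blood genes 0 and 3, and for 4 meningeal genes 1 and 1. Peaks at genes of other cell types are no count of such cells, and their part in the member values was not tested.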

How the data were processed

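Reads were processed by the submitters, whose processing notes name the build GRCm38, the aligner Bowtie2 2.3.5.1 and the peak caller MACS2, beside SAMtools 1.9, deepTools 3.3.0, CASAVA 1.9 and FastQC 0.11.8. Which settings were used, and whether reads were shifted to the transposase's cut, is not given in the sources used here. Nextera reagents were the library kit, per the labels' protocols.

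Broad peaks were deposited as a separate list for each library, and libraries served as replicates. Each deposited peak has a fold enrichment, a ratio to the peak caller's background, which was used to describe peaks and is the authors' value throughout. The deposited −log10 q, whose smallest value was 1.30 to 1.32 by list, was used to rank and filter peaks within a list. The deposited −log10 p and the deposited score were not used. Depth is unknown, since the lists hold no counts, so no counting interval was set.

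Gene spans came from the RefSeq GRCm38.p6 table, and coordinates count from 1. Peaks within 1 kb of a span end, and peaks overlapping the span and 50 kb on either side by at least 1 bp, were counted for every locus. Overlapping peaks were merged into regions. A call in a library means that its list has a peak at the locus, promoter or region. Per-library values were compared with two-sided exact permutation tests over 35 splits, and single ends and regions with Fisher's exact test, with Benjamini-Hochberg adjustment over all loci or regions (Python 3.11.15, SciPy 1.17.1). The permutation code was tested on simulated data. Members and lists were chosen with earlier results of these data known. Named loci were those called at an end, the 12 with most peaks, up to 5 per direction with the largest gap in the share of libraries called (Celsr2, tied with the last, was added after its values were seen), and the regions called in all 7 libraries. Alternatives covered the windows, a stricter q, lists of equal length, merging, leaving out each library and a replicate block. The RefSeq promoters were added as an alternative after the data were seen.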

Additional observations from a re-analysis of the deposited data

Results flagged for a closer look

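The 4 knockout libraries were checked for a library far from the others, by Dixon's gap ratio (critical value 0.829). The check took the 4 tested values, the peaks per locus of each family and the peak numbers of the named loci. It marked 8 of these 39 groups, all 8 of them peak numbers of single loci in the window of the span and 50 kb. Chance marks about 1 in 20 groups, and with whole numbers this small a single peak is enough. Knockout 4, the longest list, was the high library at Pcdh20 (3 peaks, the others 1), Fat2 (1, the others 0) and Pcdh11x (2, the others 1). Knockout 3, the shortest list, was low at Cdh7 (0, the others 1) and Pcdh18 (0, the others 3). Knockout 2 was low at Pcdh8 (0, the others 1) and high at Fat4 (2, the others 1), and knockout 1 was high at Pcdhb (1, the others 0).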

How the results depend on the processing

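Over 56 alternatives of the 4 tested values, no p was below 0.05 and p ran from 0.25 to 1. The small differences changed sign in several settings. The difference in called ends was 0.709 percentage points with −log10 q of at least 5, and from -2.13 to 2.13 with 1 library left out. The stricter q left 140 to 1771 peaks per list. The difference in loci with a peak in the window was 3.55 points with lists of equal length, 2.48 with the span alone, 1.95 without peaks at ends of other genes, and from -7.80 to 7.80 with 1 library left out. Peaks per locus differed by -0.00532 at the stricter q, by -0.27 without knockout 4, by -0.144 without wild-type 3, and from -0.27 to 0.518 over all libraries left out. The share of the list differed by 0.0668 points with equal lists, by 0.0121 without peaks at ends of other genes, by -0.330 at the stricter q, by -0.0705 with 100 kb on either side, and from -0.0464 to 0.0381 with 1 library left out. The cause was not tested.

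The correlations of same-numbered libraries of the 2 genotypes were 0.00123, 0.0715 and 0.0758. Those of differently numbered libraries ran from -0.103 to 0.0850. Pairing by replicate number was thus neither shown nor excluded. With the replicate block, which uses replicates 1 to 3 of each genotype and so leaves out knockout 4, the differences were -0.709, -7.80, -0.27 and 0.0313 in the same order, where the smallest p is 0.25. Of the counts set apart by genotype, all 0, that of called ends higher in knockouts stayed 0 in its 13 alternatives, and the others became 1 in 1 to 3 settings. Called ends higher in wild-type gave 1 (Cdh20) without knockout 1. Peak numbers gave 1 higher in knockouts (Pcdh11x) without wild-type 2, and 1 higher in wild-type at the stricter q (Pcdhg) and with the replicate block (Pcdh7). Regions gave 1 called by all knockouts alone with equal lists (in Cdh2), and 1 called by all wild-type libraries alone at the stricter q (by Pcdhg), without knockout 1 (Cdh20) and without wild-type 2 (Fat3).
Depth is unknown, so how many open sites went uncalled in a library cannot be given.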
